A study of Mus musculus with 16 samples.

Results

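The 36 genes examined here encode proteins of myelin and of the oligodendrocyte, the glial cell that makes it, and were taken from a list of gene names. A gene was represented by the brightest of the Affymetrix probe sets (a probe set is the group of short probes that reports on a transcript) that carry its symbol and no other. This gave 35 of the 36 genes, all of which passed the filter on dim signals, out of 11465 genes with a tested probe set. Trf, which encodes the iron carrier transferrin, was not matched because its probe set is annotated with a second symbol. The study measured RNA of the hippocampus of single male mice, 12 months old, on 16 arrays, 4 for each of 4 groups. SAMP8 mice are a senescence-accelerated strain that the labels describe as having memory deficits at this age, and 4 were untreated. Control mice, also untreated, were a 50% backcross of SAMP8 with CD-1 mice without those deficits, so they share part of the SAMP8 genome and differ from SAMP8 at many loci. Random antisense mice were SAMP8 mice given a random oligonucleotide intravenously, and AbPP antisense mice were SAMP8 mice given an oligonucleotide against the amyloid beta precursor protein by the same route. Each array carried RNA of 1 mouse. The values are log2 probe set signals, and levels of different probe sets are not compared.

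Oligodendrocytes wrap axons in a compacted membrane that speeds conduction and supports the axon. They arise from precursor cells that carry the receptor Pdgfra, pass through a stage marked by the receptor Gpr17, and then, under the transcription factors Sox10, Olig1, Olig2 and Myrf, switch on the genes of myelin proteins and of the lipids that fill the sheath. In the hippocampus most myelin lies in the fibre tracts that border the structure, and these lie next to white matter and thalamus.

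At the brightest probe set, none of the 35 genes was called between untreated SAMP8 and Control or between Random antisense and untreated SAMP8. The same held for AbPP antisense against Random antisense and against untreated SAMP8. Called means an adjusted p under 0.05 (limma, Benjamini-Hochberg adjustment over 23905 probe sets). A dimmer probe set of Tspan2 was called between AbPP antisense and untreated SAMP8 (limma, adjusted p 0.0295), a call that some alternatives lost. Without Control 4 and AbPP antisense 4, Pdgfra was called in both comparisons with AbPP antisense. Tspan2 was then called against untreated SAMP8. The pattern in the values was a spread between mice within 2 of the groups. In AbPP antisense and in Control the mice differed in the median level of these genes. The 4 untreated SAMP8 mice and the 4 Random antisense mice lay close to each other. This spread was not particular to these genes. Over all probe sets tested the median SD was 0.39 in AbPP antisense and 0.29 in Control, against 0.13 in untreated SAMP8 and 0.12 in Random antisense. Against untreated SAMP8, 31 of 35 genes had a lower mean in AbPP antisense. All 10 genes of compact myelin and the myelin membrane were among them. The 2 genes that mark precursors and their next stage, Pdgfra and Gpr17, had higher means. Gpr17 was also higher in Random antisense than in untreated SAMP8. A separate list of 16 precursor genes was mixed, with 10 higher and 6 lower and a median of 0.08. Because whole tissue was measured, a lower mean cannot tell fewer oligodendrocytes from less RNA per oligodendrocyte. The arrays also differed in genes of other tissues and in RNA integrity, and the part of this in the myelin values was not tested.

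Promoter sequences were matched to the genes from RefSeq (GRCm38.p6), for 27 of the 35 genes and 39 transcription starts. The 250 bases before 1 start are shown for 4 genes on which the comparisons turn. Tspan2 and Mobp had the smallest p values of the 35 genes between AbPP antisense and untreated SAMP8, Opalin those in the 2 comparisons without AbPP antisense, and Pdgfra differed in the opposite direction. They are Mobp at chr9:120149492-120149741, plus strand, Opalin at chr19:41077114-41077363, minus strand, Tspan2 at chr3:102734520-102734769, plus strand, and Pdgfra at chr5:75152001-75152250, plus strand, each written 5' to 3' on the gene's strand. Capitals mark ACAAAG, the core that Sox factors such as Sox10 bind, or its reverse complement CTTTGT.
Mobp: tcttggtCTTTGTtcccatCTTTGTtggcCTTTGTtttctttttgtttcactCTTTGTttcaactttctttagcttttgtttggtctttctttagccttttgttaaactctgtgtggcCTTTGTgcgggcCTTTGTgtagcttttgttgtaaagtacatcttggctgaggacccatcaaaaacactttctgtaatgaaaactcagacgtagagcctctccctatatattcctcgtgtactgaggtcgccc
Opalin: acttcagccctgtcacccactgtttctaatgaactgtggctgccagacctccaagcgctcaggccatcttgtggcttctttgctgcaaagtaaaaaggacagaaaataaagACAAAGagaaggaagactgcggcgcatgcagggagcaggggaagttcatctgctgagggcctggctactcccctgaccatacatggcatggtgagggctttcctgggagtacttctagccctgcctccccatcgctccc
Tspan2: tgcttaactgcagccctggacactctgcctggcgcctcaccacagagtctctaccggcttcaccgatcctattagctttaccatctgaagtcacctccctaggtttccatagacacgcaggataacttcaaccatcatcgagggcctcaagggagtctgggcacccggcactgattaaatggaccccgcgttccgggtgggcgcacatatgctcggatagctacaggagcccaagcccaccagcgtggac
Pdgfra: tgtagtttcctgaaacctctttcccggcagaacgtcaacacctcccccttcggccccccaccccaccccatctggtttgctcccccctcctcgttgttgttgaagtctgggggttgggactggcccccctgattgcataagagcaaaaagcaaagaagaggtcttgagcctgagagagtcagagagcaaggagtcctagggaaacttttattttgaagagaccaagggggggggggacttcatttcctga
The Mobp window holds 6 matches, the Opalin window 1 and these Tspan2 and Pdgfra windows 0; another Tspan2 start does hold a match. Over all starts, ACAAAG was searched on both strands along with CAGCTG, an E-box that Olig factors can bind and that reads the same on both strands, and CTGGCAC, a motif of Myrf. Each motif was searched separately, and matches of different motifs may overlap. ACAAAG was present in 11 of 39 windows of these genes (28.2%), against 16.5% of 32851 windows of all genes. CAGCTG was present in 10.3% against 13.0%, and CTGGCAC in 5 of 39 (12.8%) against 4.2%, in Cnp, Hapln2, Lpar1 and Mag. These shares describe letters in a window and not binding, and several starts of a gene share sequence.

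The mouse-to-mouse pattern is clearest when each gene is set against its own mean over the 16 arrays. The median of these deviations over the 35 genes was 0.06, 0.14, 0.13 and 0.11 on the untreated SAMP8 arrays and 0.10, 0.04, 0.06 and -0.11 on the Random antisense arrays. It was 0.31, -0.04, 0.24 and -0.54 on the Control arrays and -0.31, 0.36, -0.58 and -0.06 on the AbPP antisense arrays. Control 4 and AbPP antisense 3 were thus the low arrays, and AbPP antisense 2 and Control 1 the high ones. On AbPP antisense 3, 33 of the 35 genes lay below their mean and 15 had their lowest value of the 16 arrays. On AbPP antisense 2, 32 lay above it and 10 had their highest. On Control 4, 29 lay below it and 11 had their lowest. Control 2 and AbPP antisense 4 were mixed, with 16 and 17 genes above the mean and 19 and 18 below. The untreated SAMP8 arrays had 26, 32, 26 and 26 genes above it, by small amounts. The SD of a gene over its 4 mice had a median of 0.44 in AbPP antisense and in Control, 0.16 in Random antisense and 0.10 in untreated SAMP8. The same median over all probe sets tested was 0.39, 0.29, 0.12 and 0.13. The largest of the 4 SDs of a gene fell in AbPP antisense for 22 of the 35 genes and in Control for the other 13. The share of all probe sets with this property is not given here, so the count is not read as a trait of these genes.

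**Figure D1:**
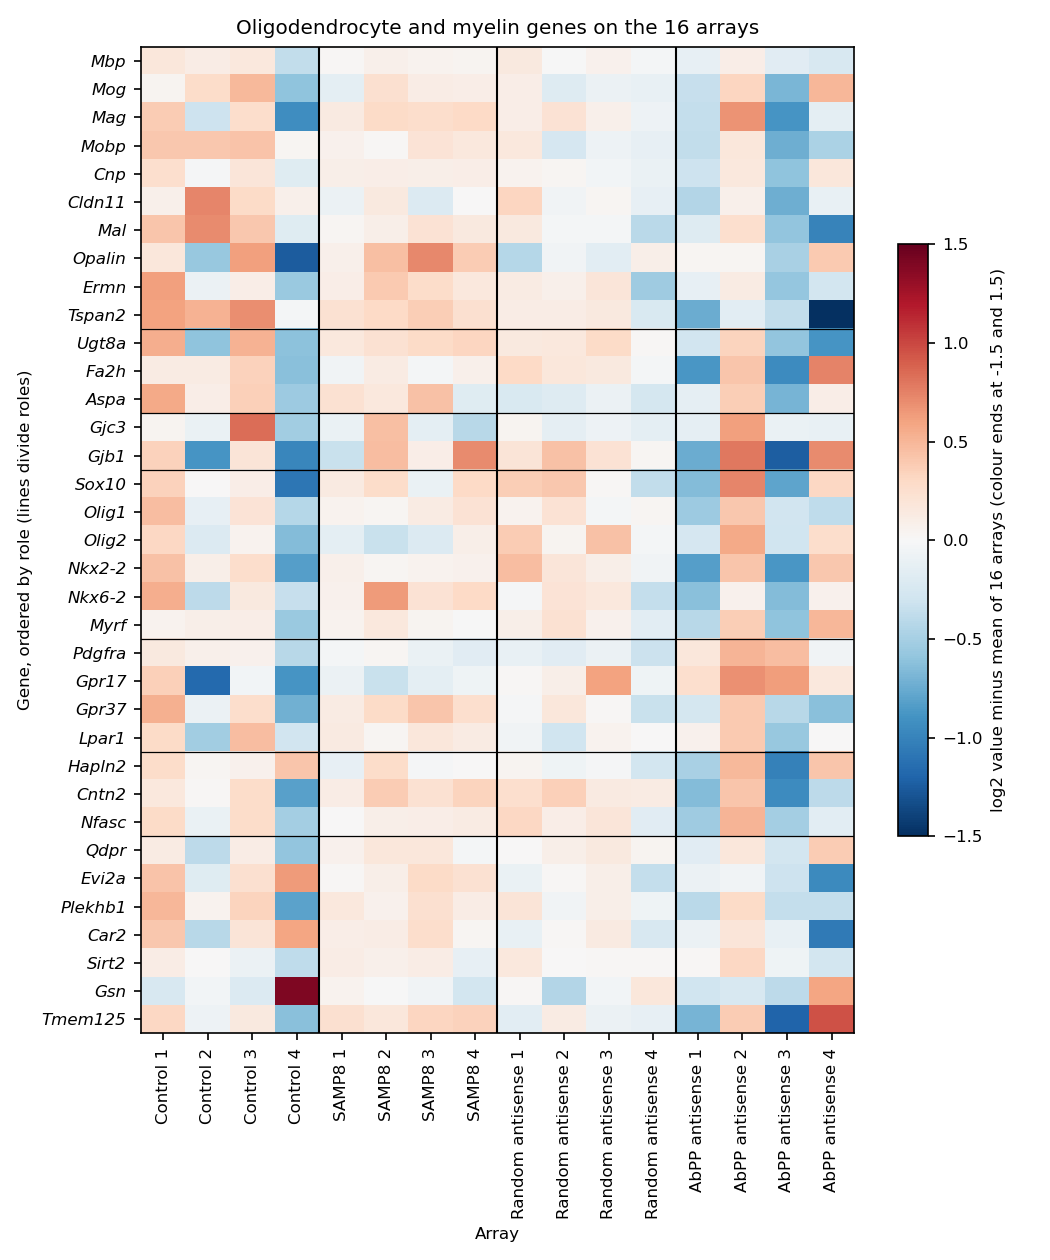
Each row is 1 of the 35 genes, ordered by role, and each column 1 of the 16 arrays; the colour is the log2 value minus the gene's mean over the 16 arrays. Control 4, AbPP antisense 1 and AbPP antisense 3 are low for 29, 30 and 33 of the genes, and AbPP antisense 2 is high for 32.

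Other measures also differed between the arrays, not all in the same order as the myelin genes. Control 4 carried the highest signal of the leukocyte and blood list, with a median deviation of 6.38 over 7 genes tested of 12, and of the microglia list, with 0.78 over 11 of 12. Neuron and astrocyte markers were low on it, with medians of -0.58 (0 of 12 above their mean) and -0.47 (1 of 12), and astrocyte markers were high on AbPP antisense 2, with 0.57 (11 of 12). On AbPP antisense 4 they were -0.40 for neurons and -0.29 for astrocytes. The median correlation of Control 4 with the other arrays was 0.922, and that of AbPP antisense 4 was 0.905. On AbPP antisense 4 the 3' minus 5' signal of the beta-actin control probe sets, a measure of RNA integrity, was 3.89, against 0.84 to 1.60 on the other 15. AbPP antisense 1 and 2 were the arrays at 1.60, and the other groups reached at most 1.36. The same measure for Gapdh was -0.09, 0.02, -0.35 and 1.26 on the AbPP antisense arrays, against -0.41 to -0.30 in the other groups. Genes of thalamus and habenula, 13 of 13 tested, had median deviations of -2.12, -0.42, -1.77 and 0.56 on the 4 AbPP antisense arrays. Within that group AbPP antisense 1 and 3, the lowest for myelin genes, were the lowest for them too, and AbPP antisense 4 was the highest. Random antisense 2 was the lowest of its group for the thalamus genes, at -0.46, with the myelin genes at 0.04. On untreated SAMP8 that measure ran from 0.38 to 0.72, on Random antisense from -0.46 to 0.21 and on Control from -0.33 to 0.74. The log2 summed level of the thalamus list ranged from 12.10 to 14.26 in AbPP antisense, against 14.20 to 14.27 in untreated SAMP8, 13.52 to 14.04 in Random antisense and 13.49 to 14.58 in Control. All 13 had a lower mean in AbPP antisense than in untreated SAMP8, with a median difference of -1.71, and 0 were called (limma), with 7 at an unadjusted p under 0.05. Choroid plexus genes, 10 of 13 tested, ranged in summed level from 11.20 to 15.30 in AbPP antisense, 15.61 to 15.95 in untreated SAMP8, 15.30 to 15.79 in Random antisense and 15.36 to 15.67 in Control. Their median deviations on the AbPP antisense arrays were -2.19, -2.14, -1.62 and -0.53, an order unlike that of the myelin genes. AbPP antisense 2, high for myelin genes, had the lowest summed level, 11.20. All 10 choroid plexus genes had a lower mean in AbPP antisense than in untreated SAMP8, with a median difference of -2.56. Of the 10, 5 were called (limma, adjusted p under 0.05), beside 0.289% of all probe sets. The part of these differences in tissue and RNA in the myelin results was not tested.

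**Figure D2:**
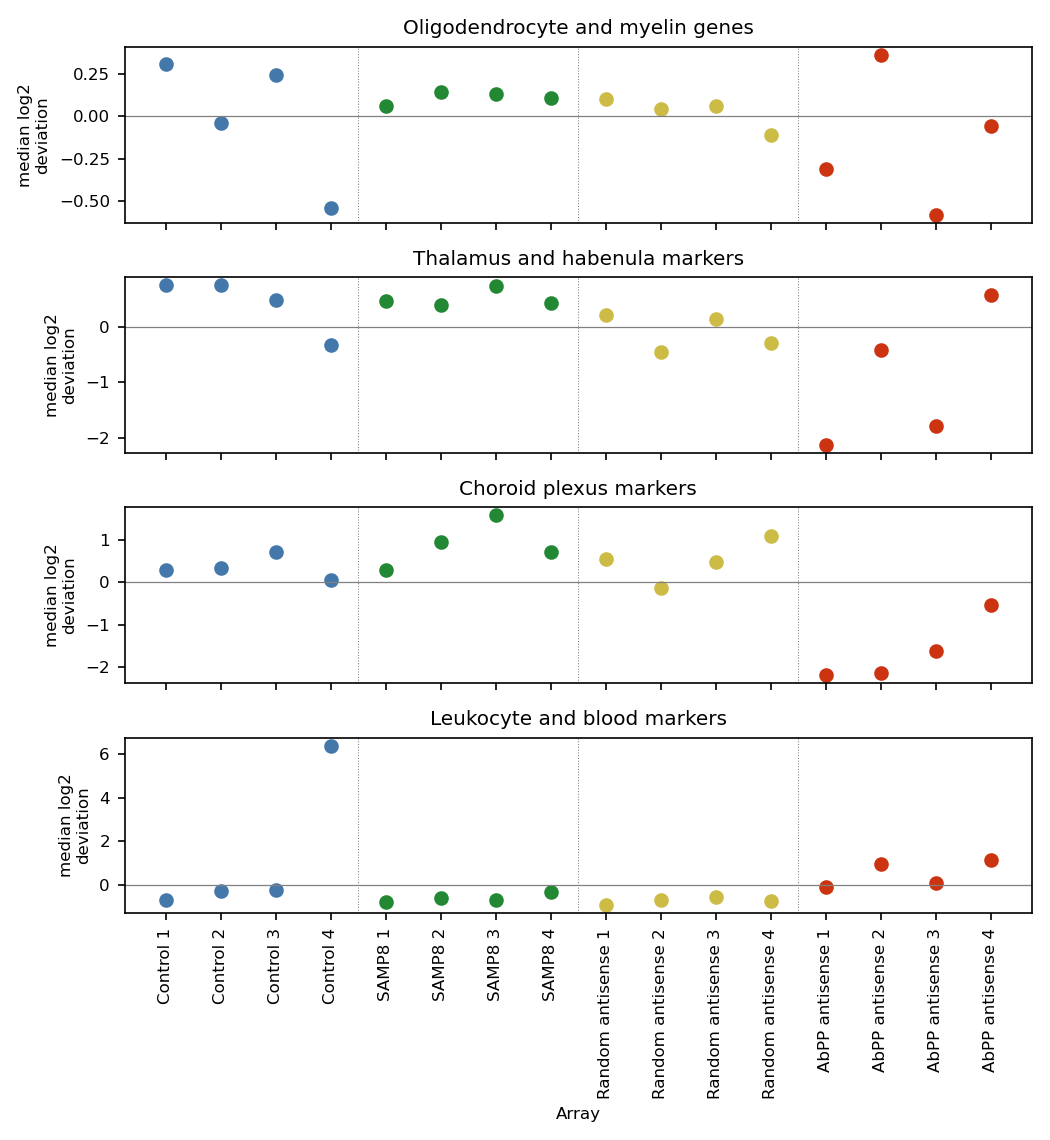
Median log2 deviation from the 16-array mean on each array, for the oligodendrocyte and myelin genes and for gene lists of other tissues. The myelin genes and the thalamus genes are both lowest on AbPP antisense 1 and 3 within their group, at -0.31 and -0.58 for myelin and -2.12 and -1.77 for thalamus. The choroid plexus genes are low on AbPP antisense 2 as well, at -2.14, where the myelin genes are high, at 0.36.

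Markers of other cell types that a dissected hippocampus can hold were followed in 8 lists. All 12 neuron markers and all 12 astrocyte markers were tested. Their log2 summed levels lay between 16.21 and 16.87 for neurons and between 15.92 and 16.56 for astrocytes over the 16 arrays, and none of either list was called in a comparison. Microglia summed levels were 13.31 to 13.58 in AbPP antisense against 13.13 to 13.18 in untreated SAMP8, and endothelial and mural levels, 10 of 12 genes tested, 12.29 to 12.55 against 11.79 to 12.17. Leukocyte and blood levels were 12.04 to 12.48 against 11.79 to 11.88, and reached 15.38 in Control. Striatal levels (8 of 10 genes) were 11.92 to 12.76 against 12.37 to 13.50, and ependymal levels (8 of 10) 8.37 to 9.14 against 9.07 to 9.77. Of the Schwann cell list, the myelinating cells of peripheral nerve, 4 of 7 genes were tested, with summed levels of 11.96 to 12.10 against 11.98 to 12.16. No gene of these 8 lists was called in any of the 4 comparisons (limma), with up to 6 of a list's genes at an unadjusted p under 0.05.

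The first comparison sets untreated SAMP8 against Control and asks how the strain with memory deficits differs. Of the 35 genes, 0 were called, and 0 had an unadjusted p under 0.05. Of all probe sets, 0.360% were called and 4.38% had an unadjusted p under 0.05. The median log2 difference was 0.08, beside 0.04 over all probe sets, with 24 genes higher and 11 lower in SAMP8. Of all probe sets, 41.6% were lower. The groups overlapped for all 35 genes, and did not for 4.81% of all probe sets. Opalin, a membrane protein of mature oligodendrocytes, read 9.10, 9.47, 9.74 and 9.41 in SAMP8. The Control mice read 9.19, 8.45, 9.64 and 7.78. Control 4 was the lowest, and 2 Control mice lay within the SAMP8 range. The difference was 0.66 (SE 0.32), with an adjusted p of 0.999, and 0.34 without Control 4. Cldn11, which forms the tight junctions between the layers of myelin, read 10.94, 11.17, 10.82 and 11.03 in SAMP8 and 11.10, 11.76, 11.31 and 11.11 in Control. It went the other way, -0.33 (SE 0.19, adjusted p 0.999), or -0.18 without Control 2, and the groups overlapped. Qdpr, a pteridine reductase abundant in oligodendrocytes, read 14.15, 14.25, 14.25 and 14.06 against 14.21, 13.69, 14.19 and 13.49. Control 2 and 4 were low and Control 1 and 3 at the SAMP8 level, and the difference was 0.28 (SE 0.17, adjusted p 0.999), or 0.15 without Control 4.

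The major myelin proteins gave nearly the same mean in both strains. Mbp, myelin basic protein, which holds the inner faces of the membrane together, had a mean of 15.50 ± 0.03 (SD, n = 4) in SAMP8 and 15.47 ± 0.25 in Control, whose arrays read 15.63, 15.56, 15.61 and 15.09. Mog, a glycoprotein on the outer surface of the sheath, had 10.54 ± 0.16 and 10.51 ± 0.47. Their differences were 0.03 (SE 0.12) and 0.02 (SE 0.25). Among the other roles, the enzymes that make myelin lipids and cleave N-acetylaspartate differed by 0.04 (Fa2h, fatty acid 2-hydroxylase) to 0.29 (Ugt8a, which makes galactosylceramide). The connexins differed by -0.11 (Gjc3) and 0.56 (Gjb1), the transcription factors by -0.02 (Olig2) to 0.31 (Nkx6-2), the receptors by -0.03 (Pdgfra) to 0.27 (Gpr37), and the proteins of axon contact and nodes by -0.16 (Hapln2) to 0.35 (Cntn2). Without Control 4, Nkx6-2 differed by 0.20 and Cntn2 by 0.11. The small positive shift was not there with Control 4 and AbPP antisense 4 left out: the median became -0.02, with 16 genes higher and 19 lower, and 0 called beside 0.515% of all probe sets. Control 4 was not low for every gene. Gsn, the actin-severing protein gelsolin, read 11.75 there against 10.10, 10.31 and 10.14 on the other Control arrays, and Evi2a and Car2 (carbonic anhydrase 2) also had their highest Control values on it, 10.80 and 12.60. Macrophages also express Gsn, and red blood cells also hold carbonic anhydrase 2.

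**Figure D3:**
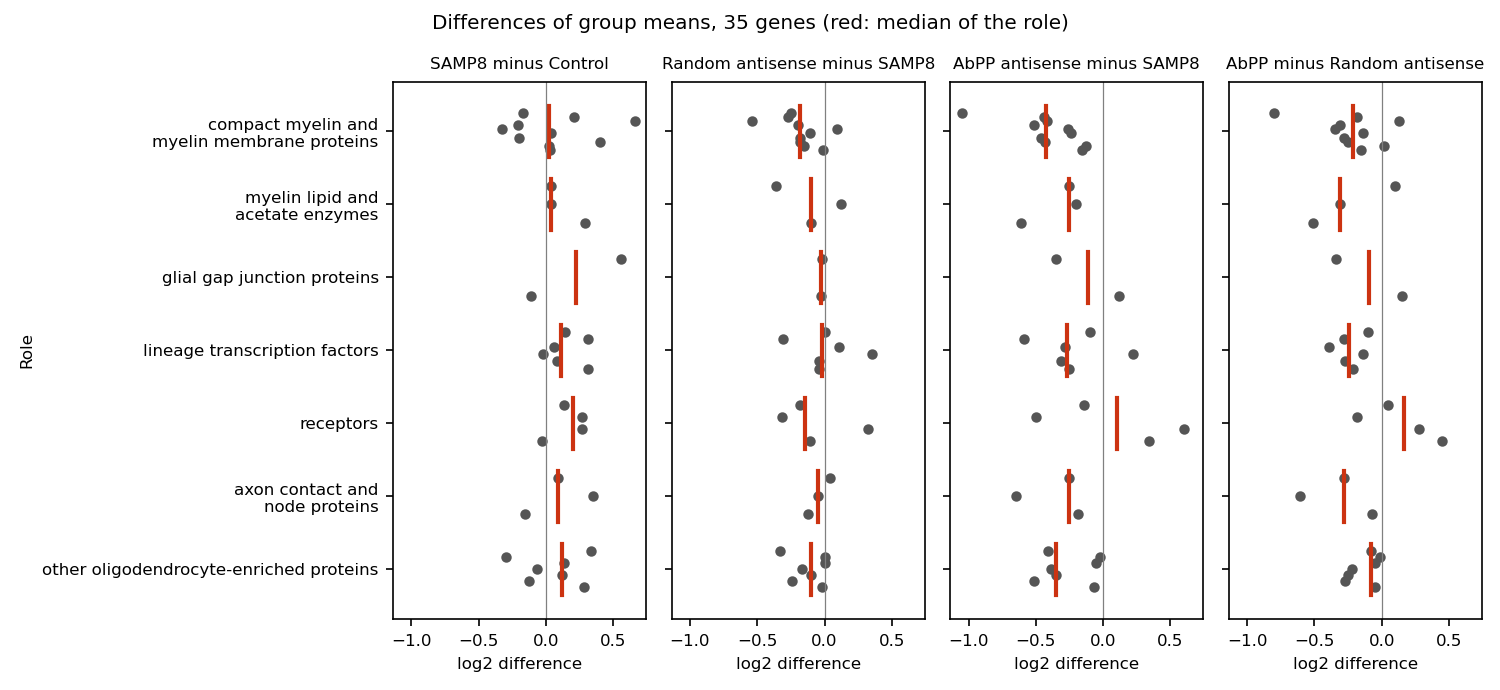
Each point is 1 gene's log2 difference between group means, in panels by comparison and in rows by role, with the median of the role in red. In AbPP antisense minus untreated SAMP8 all 10 compact myelin genes lie below 0, with a median of -0.42, while Pdgfra and Gpr17 lie at 0.34 and 0.60.

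Random antisense was compared with untreated SAMP8 as the control for the injection and for an oligonucleotide without this target. Of the 35 genes, 0 were called and 0 had an unadjusted p under 0.05, and 0% of all probe sets were called and 1.12% had an unadjusted p under 0.05. The median was -0.10, beside -0.01 over all probe sets, with 28 genes lower and 7 higher. Of all probe sets, 52.9% were lower. Opalin read 8.60, 8.97, 8.86 and 9.11 in Random antisense, and only the highest of these passed the lowest SAMP8 mouse, at 9.10. The difference was -0.54 (SE 0.32, adjusted p 1, exact permutation p 0.0571), and -0.28 with Random antisense 1 counted as untreated SAMP8. Aspa, which frees acetate from N-acetylaspartate for lipid synthesis, read 8.92, 8.95, 9.06 and 8.88 in Random antisense and 9.38, 9.30, 9.59 and 8.97 in SAMP8, a difference of -0.36 (SE 0.24, adjusted p 1). Olig2 read 8.66, 8.32, 8.72 and 8.26 against 8.14, 7.95, 8.08 and 8.37, a difference of 0.35 (SE 0.22, adjusted p 1), or 0.19 with Random antisense 1 counted as untreated SAMP8, with the highest SAMP8 mouse inside the Random antisense range. In 3 genes every Random antisense mouse lay below every SAMP8 mouse, beside 4.20% of all probe sets: Cnp, a phosphodiesterase of the myelin cytoplasm, at -0.11, Tspan2, a tetraspanin of the myelin membrane, at -0.25, and Tmem125 at -0.33. Gpr17 alone lay entirely above, at 0.32, beside 3.91% of all probe sets.

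AbPP antisense and Random antisense mice are both injected SAMP8 mice and differ in the oligonucleotide given. Of the 35 genes, 0 were called and 3 had an unadjusted p under 0.05, against 0.0837% and 12.3% of all probe sets. The median was -0.18, beside 0.01 over all probe sets, with 28 genes lower and 7 higher; of all probe sets, 49.0% were lower. Pdgfra, the growth factor receptor of precursors, read 9.32, 9.65, 9.61 and 9.09 in AbPP antisense and 9.03, 8.97, 9.06 and 8.82 in Random antisense. The groups did not overlap, the only such gene, beside 3.87% of all probe sets higher in this way. Pdgfra differed by 0.45 (SE 0.15, adjusted p 0.256), and its exact permutation p of 0.0286 is the smallest that 4 against 4 mice allow. Without Control 4 and AbPP antisense 4 it was 0.56 with an adjusted p of 0.0224, and 0.832% of all probe sets were then called. Tspan2 read 9.68, 10.27, 10.06 and 8.63 in AbPP antisense and 10.53, 10.54, 10.57 and 10.19 in Random antisense. AbPP antisense 4 was the lowest and only AbPP antisense 2 reached the lowest Random antisense mouse. The difference was -0.80 (SE 0.27, adjusted p 0.284). It was -0.45 without AbPP antisense 4 (adjusted p 0.37) and -0.38 with the actin 3' minus 5' signal as a covariate (adjusted p 0.577). Cntn2, contactin-2, which joins axon and glia beside the node, read 8.39, 9.46, 8.10 and 8.65 against 9.29, 9.40, 9.18 and 9.16. Of the AbPP antisense mice, 3 were below and 1 was above all the Random antisense mice, and the difference was -0.61 (SE 0.26, adjusted p 0.374).

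By role, all 6 transcription factors had lower means in AbPP antisense than in Random antisense, from -0.39 (Nkx2-2) to -0.10 (Myrf), and so did all 3 genes of axon contact and all 7 other enriched genes, the latter by at most 0.27. Of the 10 compact myelin genes, 8 were lower, with a median of -0.21. Of the receptors, 3 of 4 were higher, with Gpr37, a receptor of mature oligodendrocytes, at -0.18 as the exception. None of these passed the test.

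Against untreated SAMP8, with which Random antisense was also compared, AbPP antisense gave the largest shift of the 4 comparisons. The 2 comparisons share the SAMP8 arrays, and the 2 with AbPP antisense share those arrays, so they are not independent. Of the 35 genes, 0 were called and 9 had an unadjusted p under 0.05, against 0.289% and 14.7% of all probe sets. The median was -0.26, beside 0.00 over all probe sets, and 31 genes were lower, against 49.3% of all probe sets. Tspan2 read 10.65, 10.72, 10.79 and 10.66 in SAMP8, so all 4 AbPP antisense mice lay below all 4 SAMP8 mice. Its difference was -1.05 (SE 0.27, adjusted p 0.124, exact permutation p 0.0286). Without Control 4 and AbPP antisense 4 the difference was -0.70 at an adjusted p of 0.0254, beside 1.68% of all probe sets called. Without AbPP antisense 4 alone it was -0.70 at an adjusted p of 0.102, and with the actin 3' minus 5' covariate -0.59 at 0.355. Without AbPP antisense 3 it was -1.18 at an adjusted p of 0.0323, and 5.38% of all probe sets were then called. Mobp, a small basic protein of compact myelin whose promoter window holds the 6 matches of ACAAAG, read 12.86, 13.41, 12.50 and 12.76 in AbPP antisense and 13.30, 13.25, 13.44 and 13.39 in SAMP8. AbPP antisense 2 lay within the SAMP8 range and the other 3 below it, and the difference was -0.46 (SE 0.17, adjusted p 0.233), or -0.93 (adjusted p 0.0742) as the mean over its 4 tested probe sets. Nkx6-2, a homeobox factor needed for myelin at the paranode, read 3.86, 4.55, 3.84 and 4.56 against 4.55, 5.13, 4.71 and 4.79, close to the filter of 4. Its difference was -0.59 (SE 0.24, adjusted p 0.27).

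**Figure D4:**
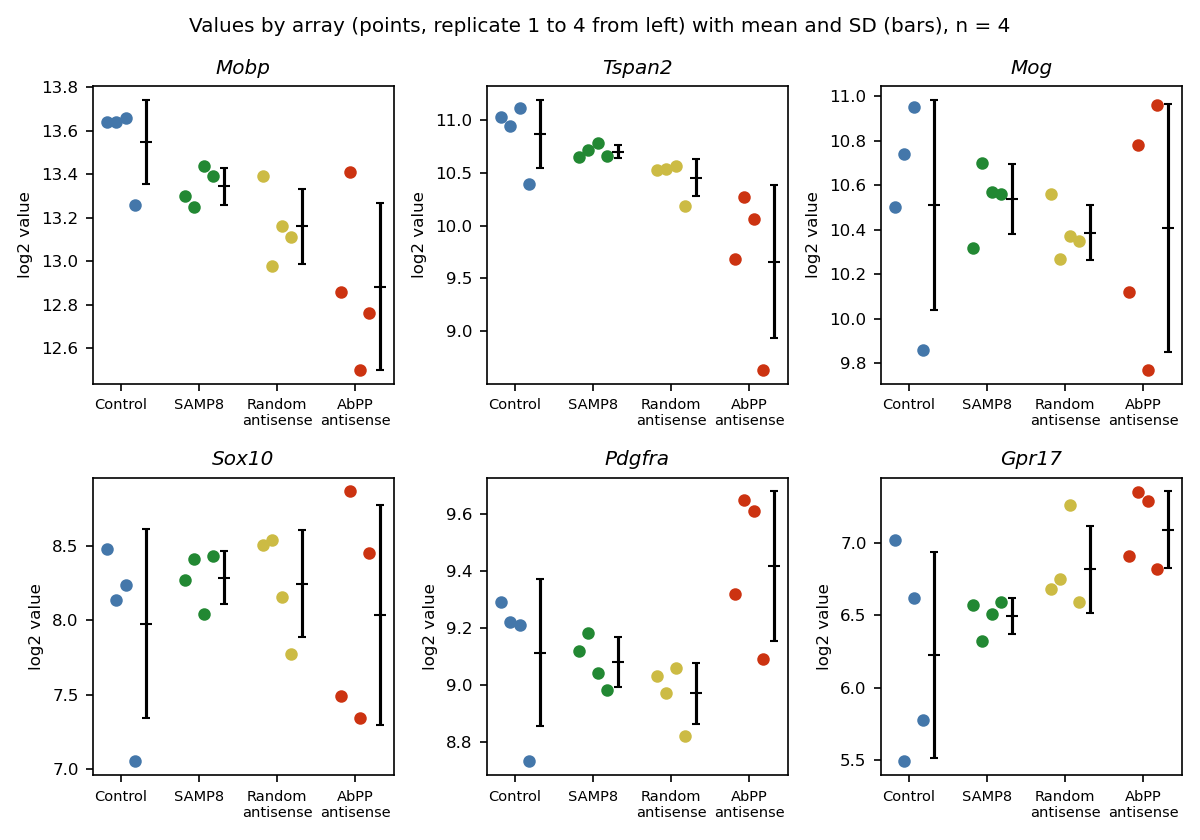
Log2 values of selected genes on each array (points) with the mean and SD of each group (bars, n = 4). Tspan2 lies at 9.68, 10.27, 10.06 and 8.63 in AbPP antisense, below all untreated SAMP8 mice, and Pdgfra at 9.09 to 9.65, above all Random antisense mice.

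Mbp, Mog and Sox10 varied between AbPP antisense mice, not all in the same order, without a shift of the mean that passed the test. Mbp read 15.33, 15.55, 15.29 and 15.21 in AbPP antisense and 15.47, 15.53, 15.51 and 15.50 in SAMP8, a difference of -0.16 (SE 0.12, adjusted p 0.584), with AbPP antisense 4 lowest and AbPP antisense 2 alone above the SAMP8 mice. Mog read 10.12, 10.78, 9.77 and 10.96 against 10.32, 10.70, 10.57 and 10.56, with AbPP antisense 1 and 3 below and 2 and 4 above all SAMP8 mice, and a difference of -0.13 (SE 0.25, adjusted p 0.853). Sox10, the factor that drives myelin genes at every stage, showed the same split as Mog: 7.49, 8.87, 7.34 and 8.45 against 8.27, 8.41, 8.04 and 8.43, a difference of -0.25 (SE 0.35, adjusted p 0.774), or -0.02 without AbPP antisense 3 and -0.53 without AbPP antisense 2. Olig2, at 8.03, 8.85, 7.98 and 8.55, differed by 0.22 (SE 0.22, adjusted p 0.682).

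The precursor and intermediate markers were not low on AbPP antisense 3, where 33 of 35 genes were below their mean: Pdgfra read 9.61 and Gpr17 7.29. Both were low on Control 4, Pdgfra at 8.73 and Gpr17 at 5.78. Gpr17 read 6.91, 7.35, 7.29 and 6.82 in AbPP antisense and 6.57, 6.32, 6.51 and 6.59 in SAMP8, with no overlap, beside 3.55% of all probe sets higher in this way. The difference was 0.60 (SE 0.28, adjusted p 0.334, exact permutation p 0.0286). Against Random antisense, Gpr17 differed by 0.28 (SE 0.28, adjusted p 0.728) and the groups overlapped. Control mice ranged more widely for it, at 7.02, 5.49, 6.62 and 5.78. Pdgfra differed from SAMP8, at 9.12, 9.18, 9.04 and 8.98, by 0.34 (SE 0.15, adjusted p 0.308), and by 0.45 with an adjusted p of 0.0393 without Control 4 and AbPP antisense 4, when 1.68% of all probe sets were called.

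The differences of the remaining roles from SAMP8 did not pass the test either. All 3 enzymes were lower, from -0.20 (Fa2h) to -0.61 (Ugt8a). The connexins lay at 0.12 (Gjc3) and -0.35 (Gjb1). The 3 genes of axon contact were lower, from -0.19 (Hapln2) to -0.65 (Cntn2), and so were all 7 other enriched genes, from -0.02 (Gsn) to -0.51 (Evi2a). Evi2a read 10.07, 10.10, 9.85 and 9.20 in AbPP antisense and 10.17, 10.24, 10.45 and 10.39 in SAMP8, so it and Tspan2 were the 2 genes whose AbPP antisense mice all lay lower, beside 4.41% of all probe sets. The moderated F test over the 4 groups called 0 of the 35 genes, with 0.11 as the lowest adjusted p, beside 0.849% of all probe sets called. It gave 7 of the 35 an unadjusted p under 0.05. The share of all probe sets at that unadjusted level is not given here, so the 7 is not read as a trait of these genes.

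The array holds 31 further tested probe sets for these genes, and some read differently from the brightest. Their sign was opposite to that of the brightest probe set in 4, 6, 5 and 6 of 31 cases, in the order SAMP8 against Control, AbPP antisense against Random antisense, Random antisense against SAMP8, and AbPP antisense against SAMP8. Of the 31, 1 was called between AbPP antisense and SAMP8, beside 0.289% of all probe sets, and 0 in each other comparison. This was Tspan2 probe set 1432417_a_at, named after its values were seen, which read 6.46, 6.04, 7.64 and 5.37 in AbPP antisense and 8.48, 8.33, 8.56 and 8.31 in untreated SAMP8. It fell by 2.04 (SE 0.36, adjusted p 0.0295). Without Control 4 and AbPP antisense 4 the difference was -1.71, with an adjusted p of 0.015. The call was lost in 12 of 27 alternatives. These were leaving out any of the 4 SAMP8 mice (adjusted p 0.0837 to 0.131), AbPP antisense 1 or 2 (0.0639 and 0.0542) or Random antisense 1, 2 or 3 (0.0527 to 0.0543), testing every probe set (0.0705), fitting only the 8 arrays compared (0.373), and adding the actin 3' minus 5' signal as a covariate (-1.54, adjusted p 0.0976). The third Tspan2 probe set, 1424568_at, differed by -0.37 (SE 0.17, adjusted p 0.337).

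Mbp has 8 tested probe sets. The brightest 4 differed from SAMP8 by -0.13 to -0.21, whereas 1451961_a_at read 12.39, 12.69, 12.65 and 9.76 in AbPP antisense, a difference of -1.37 (SE 0.47, adjusted p 0.209) with AbPP antisense 4 far below the rest. The smallest adjusted p of the 8 was that of 1425263_a_at, which read 7.39, 7.43, 6.52 and 6.58 against 7.87, 7.90, 7.71 and 8.19. Its difference was -0.94 (SE 0.20, adjusted p 0.0721), with no overlap, beside 4.41% of all probe sets lower in this way. Probe set 1425264_s_at differed in the opposite direction, 0.36 (SE 0.13, adjusted p 0.226). It also had no overlap, beside 3.55% of all probe sets higher in this way. Mobp probe set 1450088_a_at read 9.09, 10.15, 10.32 and 7.90 against 11.04, 10.85, 11.23 and 11.40, a difference of -1.77 (SE 0.39, adjusted p 0.0745). AbPP antisense 4, the array with the 3' minus 5' actin signal of 3.89, was again the lowest. The other 3 mice were also below all SAMP8 mice, beside the same 4.41% of all probe sets. The part of RNA integrity in these values was not tested. The positions of the probe sets along their transcripts were not used here.

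**Figure D5:**
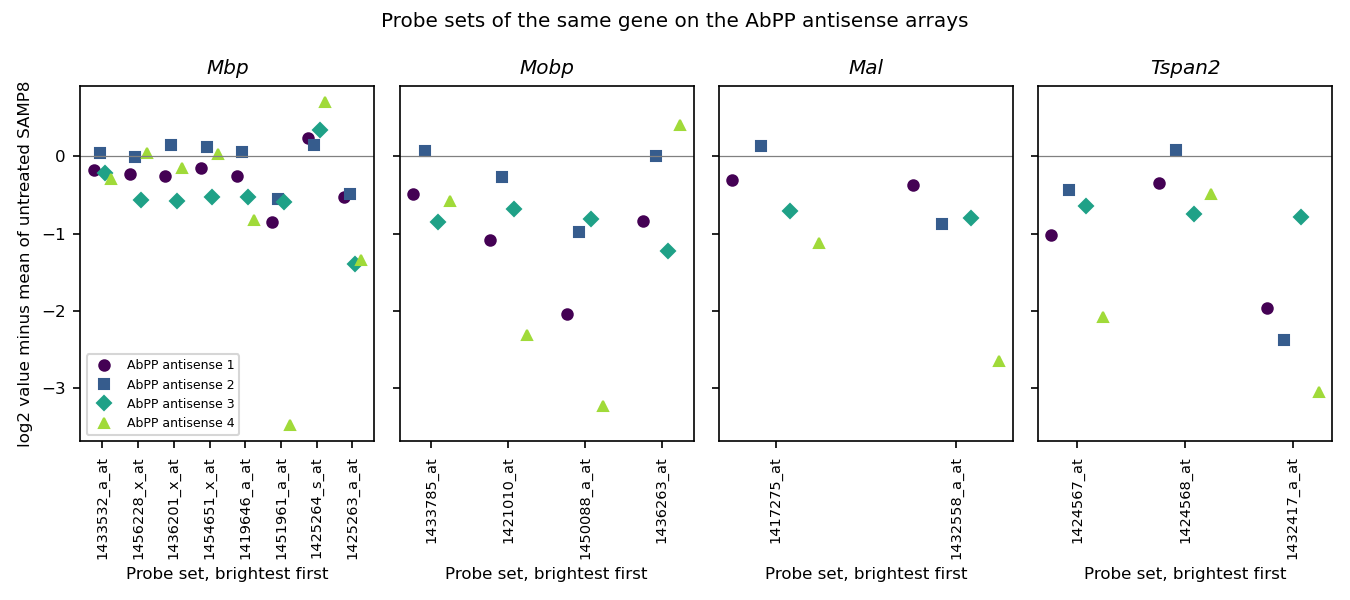
Log2 value on each AbPP antisense array minus the mean of untreated SAMP8, for every tested probe set of Mbp, Mobp, Mal and Tspan2, brightest first. The brightest Mbp probe set stays near 0, with a mean of -0.16, and Mbp 1451961_a_at and Mobp 1450088_a_at reach means of -1.37 and -1.77 with AbPP antisense 4 lowest.

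Further genes of the same biology were followed in 5 lists. Of 38 other genes of mature oligodendrocytes, 35 were tested and 0 were called in any comparison (limma), with 1, 1, 0 and 6 at an unadjusted p under 0.05 in the order above. Their medians were 0.11, -0.08, -0.18 and -0.26, beside 0.08, -0.18, -0.10 and -0.26 for the 35 myelin genes. Against untreated SAMP8, 30 of 35 were lower in AbPP antisense and 28 in Random antisense. Between the antisense groups, 21 of 35 were lower in AbPP antisense. The genes of smallest p between AbPP antisense and untreated SAMP8 were Apod, a lipid carrier, at -0.37 (adjusted p 0.197), Adamts4, a protease of mature oligodendrocytes, at -0.83 (0.232) and Pex5l at -0.69. The list's median deviation lay between -0.56 and 0.23 in AbPP antisense and between 0.07 and 0.19 in untreated SAMP8. Of 21 precursor genes, 16 were tested and 0 were called, with 0, 1, 1 and 4 at an unadjusted p under 0.05. Their medians were 0.12, 0.15, -0.02 and 0.08, and 10 of 16 were higher in AbPP antisense than in SAMP8. Their median deviation ran from -0.11 to 0.16 in AbPP antisense and from -0.76 to 0.03 in Control, where Control 4 was the lowest with 1 of 16 genes above its mean.

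Of 18 genes of lipid synthesis and breakdown, 16 were tested and 1 was called. Galc, the lysosomal enzyme that degrades galactosylceramide, had a mean of 8.57 in untreated SAMP8 and 3.92 in Control (adjusted p 0.00328). A second Galc probe set had 3.28 and 5.21 (adjusted p 0.00013), so the direction depends on the probe set. The lower mean of each lies under the filter of 4 log2, so no size is given. Both stayed within 0.25 in the other 3 comparisons, and 0 genes of the list were called there, with at most 1 at an unadjusted p under 0.05. Of 16 axonal partners of myelin, 14 were tested and 0 called, with at most 1 at an unadjusted p under 0.05 in a comparison. All 14 were higher in SAMP8 than in Control, with a median of 0.11 and Nrcam, an adhesion molecule of the node, at 0.51 (adjusted p 0.553). Control 4 was the lowest array for this list, with a median deviation of -0.59 and 0 of 14 genes above their mean. The median deviation was 0.15, 0.09 and 0.09 on Control 1 to 3, against 0.02 to 0.10 in untreated SAMP8. The list was not compared without Control 4. Of 25 genes of signals that act on oligodendrocytes, 21 were tested, 0 were called, at most 1 had an unadjusted p under 0.05, and the medians lay between -0.02 and 0.04.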

How the data were processed

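RNA of the hippocampus of 16 mice was measured on Affymetrix arrays from 4 µg of total RNA each, per the labels' protocols. The values are log2 signals that the authors made with GCRMA, per the submitters' processing notes. GCRMA subtracts background, normalizes between arrays and gives 1 value per probe set, so absolute shifts shared by all genes are removed. Scanned intensities were not used here, and depth does not apply: the number of arrays limits the precision. Titles set the groups. For Random antisense 1 the treatment field reads as untreated, but the title decided, and counting it with SAMP8 was an alternative.

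Removing 64 control probe sets from 45101 left 45037, and 34945 of them carry 1 gene symbol in GEO's platform annotation, 932 several and 9160 none. Testing was limited to the 23905 probe sets that passed 4 log2 on at least 4 of the arrays, leaving 21132 untested. Groups were compared in limma 3.58.1 (R 4.3.3) in a one-way layout with residual df 12 and prior df 2.63, sharing 1 estimate of the spread. The adjusted p is Benjamini-Hochberg over all tested probe sets of a comparison, with a threshold of 0.05. The exact permutation test was two-sided, with 70 assignments of 8 arrays. The code was tested on simulated data. The members, roles and lists were chosen with earlier results of these data known. Named members are the 3 of smallest p in each comparison, any called, and Mbp, Mog, Mobp, Olig2, Sox10, Pdgfra and Gpr17 whatever their values; other examples are the largest differences of a role, and for the lists the called genes or those of smallest p. Figures were drawn with matplotlib 3.10.9. Alternatives changed the filter, arrays, weights, scaling, block, RNA integrity covariate and probe set rule.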

Additional observations from a re-analysis of the deposited data

Results flagged for a closer look

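Within each group of 4 arrays the highest or lowest value was compared with its neighbour, for each of the 35 genes and for their median deviation. In 11 of 144 groups of values, 1 array stood apart from the other 3 by Dixon's test at the 95% level. Chance alone gives about 1 in 20 for independent groups. These groups share arrays and genes that vary together (median pairwise correlation 0.57), so the 11 cannot be set against that rate. Control 4 was the array that stood apart in 5 of the 11. It was low for Mbp, at 15.09 with the next value at 15.56, for Mobp, at 13.26 against 13.64, for Myrf, a transcription factor that drives myelin genes, at 7.91 against 8.52, and for Pdgfra, at 8.73 against 9.21. It was high for Gsn, at 11.75 against 10.31. AbPP antisense 2 was high for Gjc3, at 4.79 against 4.07, and for Plekhb1, at 12.86 against 12.22. AbPP antisense 4 was high for Gsn, at 10.94 against 10.10. Random antisense 4 was low for Ermn, a cytoskeletal protein of myelinating cells, at 9.79 against 10.40, and for Tspan2, at 10.19 against 10.53. Random antisense 1, whose treatment field conflicts with its title, was high for Sirt2, a deacetylase of the myelin cytoplasm, at 10.67 against 10.53.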

How the results depend on the processing

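Each result was recomputed under 27 alternatives or fewer. The median over the 35 genes kept its sign in all of them in the 3 comparisons with treated mice, from -0.37 to -0.04 for AbPP antisense against Random antisense, -0.13 to -0.06 for Random antisense against SAMP8 and -0.48 to -0.09 for AbPP antisense against SAMP8. For SAMP8 against Control the median ran from -0.07 to 0.19. Without Control 4 and AbPP antisense 4 together, 1 gene (Pdgfra) was called between the antisense groups, 2 (Pdgfra, Tspan2) between AbPP antisense and SAMP8, and 2 by the F test. With the mean over a gene's probe sets, 1 gene (Tspan2) was called between AbPP antisense and SAMP8, and 2 (Mobp, Tspan2) by the F test, which also called 2 with array weights. Leaving out single mice gave 0 to 1 gene called between AbPP antisense and SAMP8 (Tspan2, without AbPP antisense 3) and 0 to 1 by the F test (Mobp, without AbPP antisense 2). No other setting moved a call of the 35 genes. With the replicate block 0 genes were called in every comparison and the medians were 0.08, -0.18, -0.10 and -0.26. Same-numbered mice correlated between -0.27 and 0.24, and 5 of 16 arrays correlated best with their own number. No pairing by number was seen, but so few arrays cannot exclude one. Counts over all probe sets moved much more: 86 (37 to 295) for SAMP8 against Control, 20 (0 to 896) for the antisense groups, 0 (0 to 19) for Random antisense against SAMP8 and 69 (5 to 1286) for AbPP antisense against SAMP8, with the highest 896 and 1286 without AbPP antisense 3. The cause was not tested. The fit shares 1 spread among the groups, although the SDs of Control and AbPP antisense are larger, and with only the 8 arrays compared 0 of the 35 genes were called in each comparison.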
